A study of Mus musculus with 4 samples.

Results

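MOV10 binding was described for the genes of the Rab, Arf and Arl GTPases in N2A cells, a mouse neuroblastoma line, which the labels call a neurocarcinoma cell line. The family was proposed with earlier results of these data known. Its genes were then taken by symbol from the RefSeq annotation of GRCm38.p6. Every protein-coding gene whose symbol begins with Rab, Arf or Arl followed by a digit was taken, which gave 102 of 21900 coding genes. Of these, 85 encode GTPases, 59 Rab, 6 Arf and 20 Arl, and the other 17 encode partner proteins named after a GTPase, such as the effector Rab11fip4. A peak was counted in a gene when its midpoint lay in the gene's span.

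MOV10, a helicase found with Argonaute in microRNA silencing, was studied by eCLIP, in which the RNA crosslinked to an immunoprecipitated protein is sequenced beside an input. The series comprised 4 libraries from this line, 2 immunoprecipitates with an anti-MOV10 antibody and 2 inputs, and nothing in the labels says whether replicates were separate cultures. The file used was 1 list of peaks over all libraries, in which each peak carried the authors' log2 fold of immunoprecipitate over input, called log2 enrichment from here on, and their −log10 p. The list has no header, and both readings rest on its values and on the usual column order of such files. There was therefore 1 value per peak, no spread between replicates, no known depth and no test between genes. The list held 12236 peaks, began at a log2 enrichment of 3.001 and a −log10 p of 3.01, and gave no abundance of the transcripts in the input, so a gene without a peak is not shown to be unbound. Of 15 neural crest and neuronal marker genes 4 held a peak, Map2, Stmn2, Ret and Gata2, and of 12 markers of glia, blood, endothelium, fibroblasts and epithelium 0 did. Over all protein-coding genes the share was 8.53%, which is close to 1 gene in 12, and a peak is not an expression level.

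Rab, Arf and Arl proteins are small GTPases that mark the membranes of the cell and direct vesicle traffic between them. Exchange factors (GEFs) load them with GTP, in which state they bind membranes and recruit effectors such as coats, tethers and motors, and GTPase-activating proteins (GAPs) return them to the GDP form. Rab proteins carry a prenyl anchor, Arf proteins recruit coats at the Golgi and the plasma membrane, and the Arf-like Arl proteins serve the Golgi, lysosomes, cilia and microtubules. In neurons these proteins govern axonal transport and the synaptic vesicle cycle.

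Of the 102 genes, 19 held at least 1 peak (18.6%), against a background of 8.53% of all protein-coding genes. Together they held 119 peaks, 0.973% of the list. Among the GTPase genes alone, 16 of 85 held a peak (18.8%). A peak with a log2 enrichment of at least 4 was found in 7 of the 102 genes (6.86%), against 3.59% of all coding genes, and 10 or more peaks in 3 (2.94%), against 1.83%. Because the family was proposed with earlier results of these data known, the differences from the background were not tested and support nothing about the family. By the span of the gene, the share was 13.5% (5 of 37) in spans under 15 kb, 20% (9 of 45) from 15 to 50 kb and 25% (5 of 20) above 50 kb, against 3.14%, 10.6% and 16.7% of all coding genes in those classes.

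The strongest peak per gene had a median log2 enrichment of 3.85 over the 19 genes (interquartile range 3.50 to 4.09) and of 3.84 over the 1868 coding genes with a peak (3.42 to 4.39). The median number of peaks was 4 (1.5 to 6) against 3 (1 to 8). Within the family the values were very uneven. Arf3 and Rab3c held 55 of the 119 peaks (46.2%) and 31 of the 38 peaks with a log2 enrichment of at least 4, while Rab28, Rab11b, Rab2a, Arl1 and Arl6ip1 held 1 peak each. Many listed peaks touch, so their number is not a number of separate sites. Merged when touching, the 119 peaks formed 74 stretches, 11 in Arf3 and 15 in Rab3c. The median per gene was then 3, against 2 over all coding genes.

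**Figure D1:**
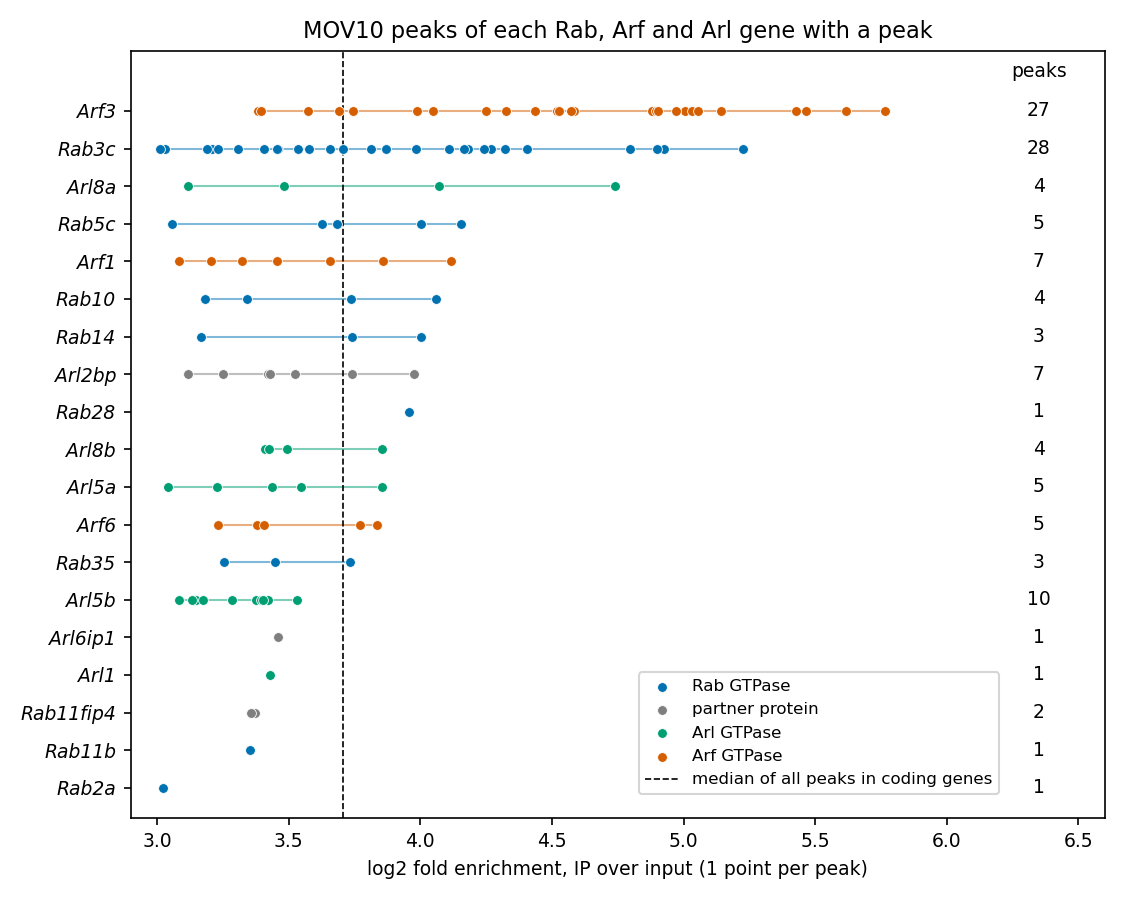
Log2 fold enrichment of immunoprecipitate over input of every peak (points) in each of the 19 Rab, Arf and Arl genes with a peak, ordered by the strongest, with the number of peaks at the right and the median of all peaks in coding genes (3.71) as a dashed line. Arf3 and Rab3c reach 5.76 and 5.23, and the peaks of Arl5b all lie below the line.

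The Arf genes, though few, held the strongest peak of the family. Peaks were found in 3 of the 6 (50%, against 8.53% of all coding genes), in Arf3, Arf1 and Arf6, and not in Arf2, Arf4 or Arf5. With 6 genes this difference was not tested. Arf3, a Golgi Arf that recruits clathrin adaptors and coats, lies on chromosome 15 (98737624 to 98763118, minus strand) and held 27 peaks with log2 enrichments from 3.38 to 5.76 and a median of 4.57. Its strongest peak, at 98738688 to 98738752, was 65 nt wide and lay 1096 nt from the annotated 3′ end, with a 54.4-fold enrichment and a −log10 p of 56.3. By its strongest peak Arf3 ranked 29 among the 1868 genes, and by its number of peaks 73.

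Along Arf3 the listed peaks were dense over the last 2328 nt, with 1 listed peak beyond. The midpoints of 26 of its 27 peaks were 84 to 2328 nt away from the 3′ end, 20 of them within 2 kb. The remaining peak lay 5054 nt from the end, after a step of 2726 nt, and was among the weakest of the gene at 3.40. Within the dense stretch 8 peaks had a log2 enrichment of at least 5, and 7 of these lay between 1096 and 2082 nt from the end (5.76, 5.01, 5.47, 5.14, 5.03, 5.62 and 5.05 going away from the end), with 5 peaks of 4.33 to 4.97 among them. The other, at 5.43, covered 10 nt and lay 329 nt from the end. From 553 to 824 nt from the end all 4 peaks were lower, between 3.57 and 3.99. Among them was the only peak of the family at the highest listed −log10 p of 400, at 98738091 to 98738263, which was the widest of the gene at 173 nt and had a log2 enrichment of 3.75. The value of 400 is shared by 84 peaks of the list and was read as a cap, not as a measured size. The next −log10 p values in the gene, 56.3, 45.8, 42.9 and 42.7, belonged to peaks of 5.76, 5.47, 5.62 and 4.90 in the stretch of high fold.

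Arf1, the Golgi Arf that recruits the COPI coat, had 7 peaks on chromosome 11 (59211412 to 59228267, minus strand). Going away from the 3′ end, from 190 to 666 nt, their log2 enrichments were 3.08, 3.20, 3.32, 3.46, 3.86, 4.12 and 3.66. They formed a single hump whose top, at 59211956 to 59212054, lay 593 nt from the end and had a −log10 p of 32.1. Arf6, which acts at the plasma membrane in endocytic recycling and actin remodelling, is a short gene of 3.831 kb on chromosome 12 (69372150 to 69375980, peaks on the plus strand). Its 5 peaks lay 1023 to 1458 nt from the 3′ end with values of 3.38, 3.23, 3.77, 3.41 and 3.83 in that order, and the strongest was at 69374492 to 69374553.

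Among the Rab genes, 8 of 59 held a peak (13.6%), with 46 peaks. By compartment these were 4 of 16 genes of the early and recycling endosome, 2 of 12 of secretion and polarised transport, 1 of 16 of the endoplasmic reticulum and Golgi, 1 of 6 of a mixed group with cilium genes and 0 of 9 of late endosomes, lysosomes and related organelles. Against the 8.53% of all coding genes, counts of 1 or 0 in groups of this size lie near the background, and the differences between compartments were not tested.

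Rab3c, a Rab of synaptic vesicles and regulated secretion, held more peaks than any other gene of the family, 28. It is a long gene of 227 kb on chromosome 13 (110054187 to 110280996, minus strand), and its peaks occupied 234 to 4976 nt from the 3′ end, within the last 2.19% of the span. The strongest, at 110055901 to 110055949, reached 5.23 (37.4-fold) with a −log10 p of 21.1 and ranked the gene 114 among the 1868. In contrast to Arf3, the peaks were spread with no step above 525 nt between neighbouring midpoints. Those within 2 kb of the end were stronger, with a median of 4.18 over 11 peaks and 7 of at least 4. Those beyond had a median of 3.54 over 17 peaks and 4 of at least 4. The longest run of touching peaks was 403 nt, at 110055739 to 110056141, and included the strongest peak.

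**Figure D2:**
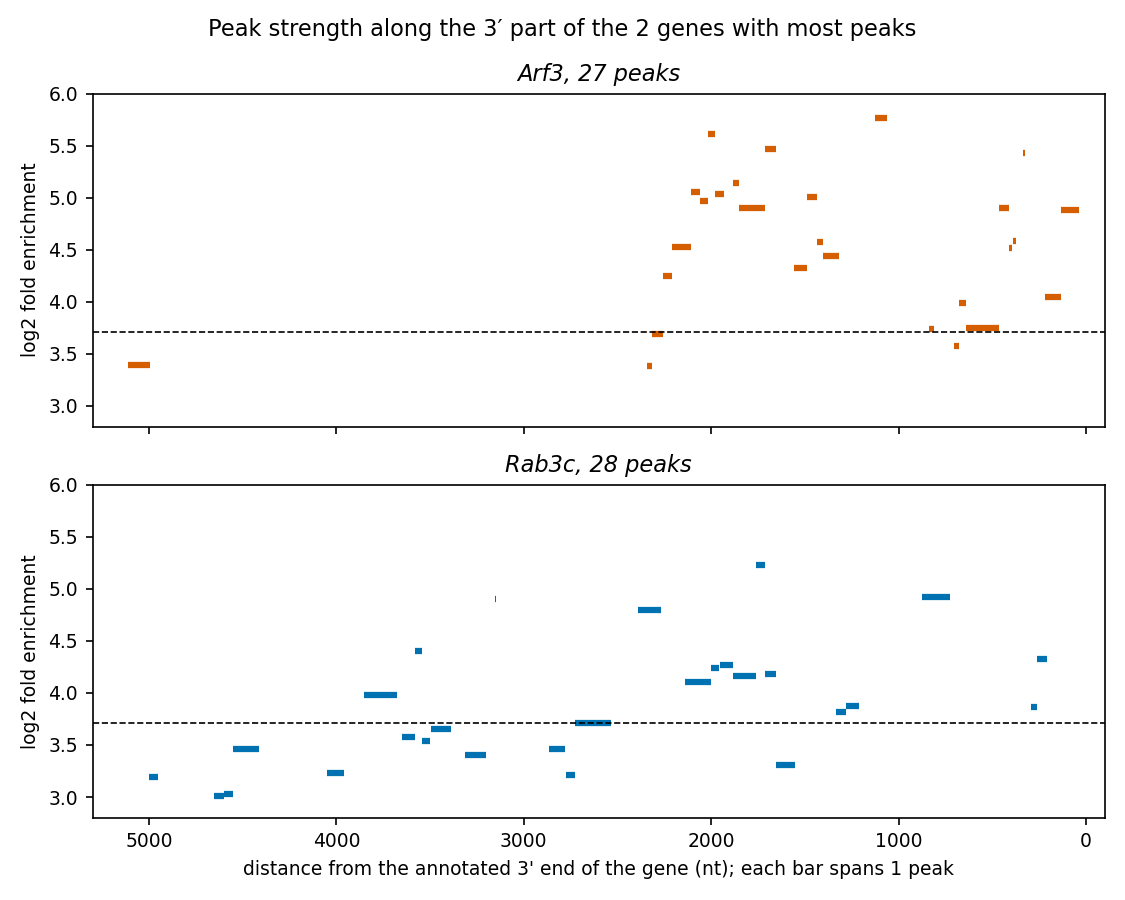
Log2 fold enrichment of each peak (bars as wide as the peak) against the distance from the annotated 3′ end for Arf3 (27 peaks, top) and Rab3c (28 peaks, bottom), with the median of all peaks in coding genes (3.71) as a dashed line. Apart from 1 peak at 5054 nt, the listed Arf3 peaks lie within 2328 nt of the end, whereas Rab3c peaks go on to 4976 nt with lower values farther out.

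Rab10, which serves exocytosis and membrane delivery to growing axons, had 4 peaks on chromosome 12, the strongest 4.06 at 3248252 to 3248278, 837 nt from the 3′ end. A pair of peaks at 800 and 837 nt (3.74 and 4.06) was separated from another at 1593 and 1743 nt (3.34 and 3.18). All 4 lay in the part of the gene that overlaps the antisense gene Rab10os. Their strand was that of Rab10, minus, and not that of Rab10os.

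The endosomal Rab genes with peaks were Rab5c, Rab14, Rab35 and Rab11b. Rab5c, of the early endosome, had 5 peaks on chromosome 11 (100715003 to 100738215, minus strand), whose values going away from the 3′ end were 3.06, 3.68, 4.00, 4.16 and 3.63, from 293 to 677 nt. The strongest lay at 100715593 to 100715652. As in Arf1, the values were highest more than 500 nt from the end and lower on either side. Rab14, of traffic between endosomes and the Golgi, had 3 peaks on chromosome 2 of 4.00, 3.17 and 3.74 at 278, 818 and 1179 nt, the strongest at 35180407 to 35180559. Rab35, of fast recycling at the plasma membrane, had 3 peaks of 3.73, 3.45 and 3.25 at 187, 309 and 515 nt. In Rab35 the order by −log10 p was the reverse, 3.93, 6.86 and 8.91.

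The remaining Rab genes had a lone peak. Rab28, a Rab of the cilium and photoreceptors, had a peak of 3.96 on chromosome 5 at 41625003 to 41625204, 130 nt from the 3′ end. Rab11b, of the recycling endosome, had a peak of 3.35 with a −log10 p of 3.04, close to the lowest in the list. Rab2a, of traffic between the endoplasmic reticulum and the Golgi, had a peak of 3.02, close to the lowest fold in the list. Each call of the latter pair thus lies near a lower limit of the list in 1 value only. The −log10 p of the Rab2a peak was 5.01.

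Of the Arl genes, 5 of 20 held a peak (25%, against 8.53% of all coding genes, not tested), with 24 peaks, and these were mostly paralog pairs. Arl8a and Arl8b, which couple lysosomes to kinesin, had 4 peaks each. In Arl8a on chromosome 1 the 4 peaks touched in a block of 153 nt, 434 to 537 nt from the 3′ end, with values of 4.07, 4.74, 3.48 and 3.12. Its strongest peak, at 135155771 to 135155803, ranked the gene 272 by fold, the third of the family after Arf3 and Rab3c. Its −log10 p of 6.79 was lower than that of peaks of smaller fold in Arf1 and Rab5c. In Arl8b on chromosome 6 the peaks were at 334, 619, 1054 and 1125 nt with values of 3.41, 3.43, 3.85 and 3.49, the strongest at 108822637 to 108822701. They overlap the long non-coding RNA gene Gm35417, which the annotation places on the opposite strand from these peaks.

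Arl5a and Arl5b, which recruit a tethering complex to the trans-Golgi, both lie on chromosome 2 with spans of 26.9 and 27.2 kb. Arl5a had 5 peaks at 1295 to 3793 nt from the 3′ end with values of 3.44, 3.55, 3.85, 3.23 and 3.04 going away from it, the strongest at 52399551 to 52399804, the widest peak of the family at 254 nt. Arl5b had 10 peaks at 1165 to 3703 nt with values between 3.08 and 3.53, the strongest at 15080149 to 15080252. The listed peaks of the pair thus covered nearly the same distances from the 3′ end, and neither gene had a listed peak in its last 1 kb. The outermost peaks of Arl5a had low −log10 p of 3.77 and 3.69. In Arl5b the nearest had 6.44 and the farthest 3.43. These extents thus rest largely on calls near the lower limit of the list. Arl5b had many weak peaks: it ranked 350 by number but 1262 by its strongest. Merged when touching, its 10 peaks formed 9 stretches. Arl1, which recruits golgins to the trans-Golgi, had 1 peak of 3.43 on chromosome 10 at 88743637 to 88743674, with a low −log10 p of 3.75.

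Among the 17 partner proteins 3 held a peak (17.6%, against 8.53% of all coding genes, not tested). Arl2bp, which binds Arl2, had 7 peaks on chromosome 8 (94666600 to 94674457, plus strand) with values of 3.25, 3.42, 3.98, 3.74, 3.53, 3.43 and 3.12 from 454 to 945 nt, again a hump with its top in the middle, at 94673786 to 94673862. Rab11fip4, an effector of Rab11, had 2 peaks of 3.37 and 3.36 at 3035 and 4627 nt, with low −log10 p of 3.60 and 3.58. Arl6ip1, a membrane-shaping protein of the endoplasmic reticulum, had 1 peak of 3.46 with a −log10 p of 4.54. The Rab3 GAP subunit genes Rab3gap1 and Rab3gap2, the exchange factor genes Rab3ip and Rab3il1 and the other 4 Rab11fip genes had none.

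Peaks of the family lay at the 3′ end with hardly an exception. In the 14 genes with a peak and a span of 15 kb or more, 100 of 101 peaks (99.0%, exact 95% binomial interval 94.6 to 99.97, which takes peaks as independent although they cluster) had their midpoint within 5 kb of the 3′ end, against 85.9% of peaks in all such coding genes. Within 2 kb lay 68 (67.3%), against 58.8%, and the median distance was 1463 nt, against 1615 nt. The exception was the peak of Arf3 at 5054 nt. By gene, the strongest peak lay within 5 kb in 14 of 14, against 89.0% of all such coding genes. None of these 101 peaks lay within 5 kb of the 5′ end (0.396% of peaks in all such genes), and 0 peaks overlapped a window from 250 nt before to 50 nt after any transcription start annotated for the family. In 9 of the 19 genes every peak lay within 1 kb of the end, and in 14 within 2 kb. Whether these positions are exonic, and how many are in the 3′ untranslated region, was not analysed here. In the 6 lists of regulators and effectors described below, 173 of 179 such peaks (96.6%) lay within 5 kb. The position is thus not particular to the family. Counting only peaks on the strand of the gene gave 99.0%, against 86.6% over all coding genes. The median span was 23.2 kb in the 19 genes, against 42.3 kb in all coding genes with a peak. What part span has in the difference was not tested.

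**Figure D3:**
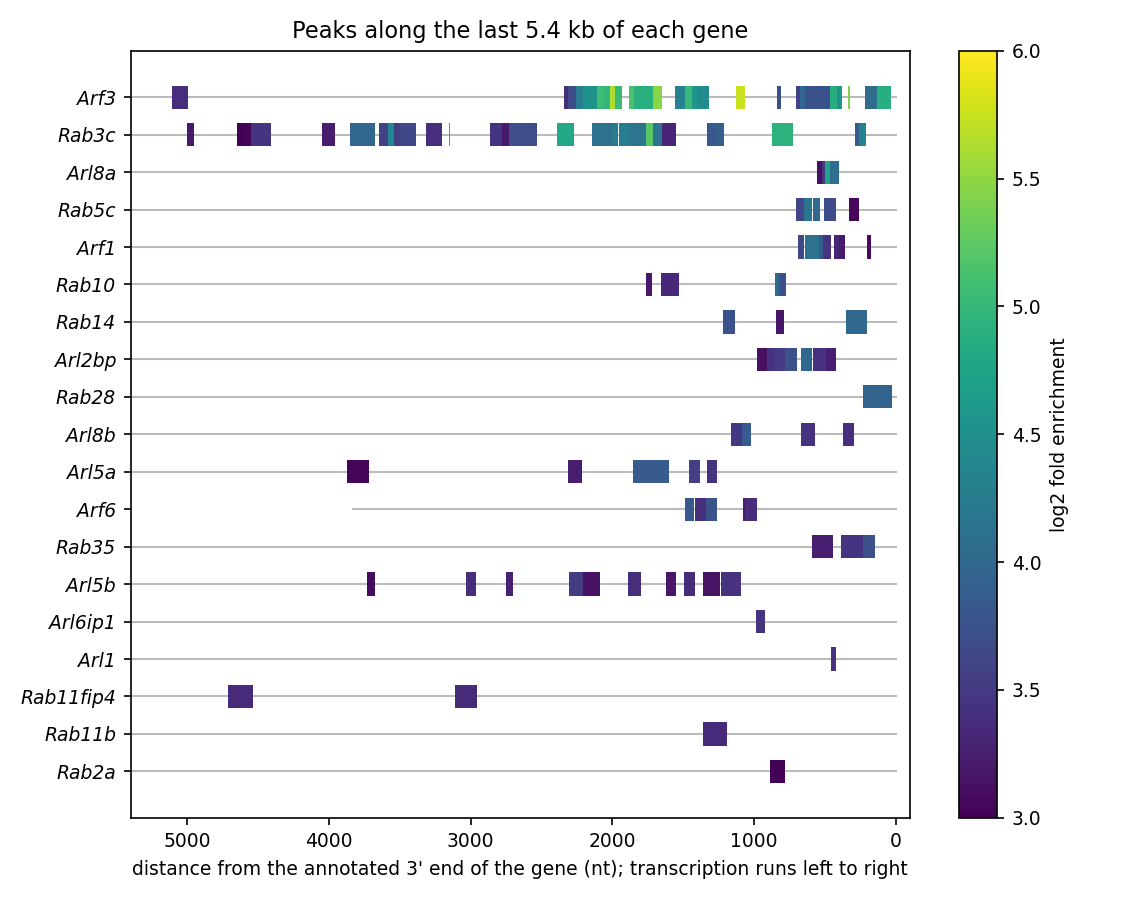
Position of each peak (coloured bars as wide as the peak, coloured by log2 enrichment) along the last part of the 19 genes, as the distance from the annotated 3′ end in nt. Peaks lie within 5 kb of the end except 1 of Arf3 at 5054 nt, and Arl5a, Arl5b, Arf6, Rab11b and Rab11fip4 have none in the last 1 kb.

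Grouped by a shared letter code and number in the symbol, the GTPase genes form 18 groups with 41 genes. Of these genes 8 held a peak (19.5%, against 18.8% of all 85 GTPase genes and 8.53% of all coding genes). Protein identity was not compared, so related genes with different numbers, as among the Arf genes, are not grouped. In 1 group, Arl8, all genes held a peak, in 5 some did and in 12 none did. With so few genes holding a peak, many small groups hold none, and nothing about paralogs is read from these counts. Rab3c had 28 peaks, and Rab3a, Rab3b and Rab3d had 0. Rab5c had 5, and Rab5a and Rab5b had 0. Arl5a and Arl5b had peaks but Arl5c had 0. Rab11b and Rab2a had 1 each, Rab11a and Rab2b 0. The Rab11b call was near the list's lower limit in −log10 p, and the Rab2a call in fold. Among the groups with no peak were Rab1, Rab4, Rab6, Rab7, Rab8, Rab9 and Rab27. Reads from stretches that near-identical genes share cannot be placed with certainty, and whether paralogs differed in binding was not tested. Of 5 annotated pseudogenes with symbols of the family 0 held a peak. The share over all pseudogenes was not analysed here, and nothing is read from so few.

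Genes that act on these GTPases also held peaks. Over 6 lists of 180 genes, which were drawn up with earlier results of these data known, 43 held at least 1 peak (23.9%). The background was 8.53%, and because of that choice the difference supports nothing about the lists. The 43 genes had a median of 2 peaks and a median strongest log2 enrichment of 3.65. Of 40 Rab GAP genes 11 held peaks, 65 in all, led by Tbc1d16 (strongest log2 enrichment 5.13, 14 peaks), Rabgap1 (4.80, 16 peaks) and Tbc1d20 (4.75, 6 peaks), which acts on Rab1. Of 35 Rab GEF genes 5 did, with 10 peaks, led by Dennd5a (4.27, 4 peaks), Rgp1 (3.72, 3 peaks) and Rabgef1 (3.54, 1 peak), which acts on Rab5. Of 39 Rab effectors 8 did, led by the vesicle motor Myo5a (5.33, 23 peaks), Erc1 of the presynaptic active zone (5.18, 17 peaks) and the endosomal adaptor Appl1 (4.18, 5 peaks).

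Of 15 Arf GEF genes 6 held a peak (40.0%), but only 8 peaks in all, led by Iqsec1 (4.25, 1 peak), Arfgef1 (3.85, 1 peak) and Arfgef2 (3.43, 1 peak), the latter pair being the large exchange factors of the trans-Golgi. Of 26 Arf GAP genes 8 did (30.8%), with 33 peaks, led by Agap1 (5.78, 15 peaks), Git1 (4.16, 7 peaks) and Agap2 (4.15, 3 peaks). Of 25 effectors of Arf and Arl proteins 5 did (20%), led by Plekha8 (5.11, 9 peaks), a lipid-transfer protein of the trans-Golgi, the kinesin adaptor Spag9 (4.26, 6 peaks) and Pip5k1c (3.76, 2 peaks), a lipid kinase. For these lists too the background was 8.53% of all coding genes. They were drawn up with earlier results of these data known, so the differences support nothing about them.

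**Figure D4:**
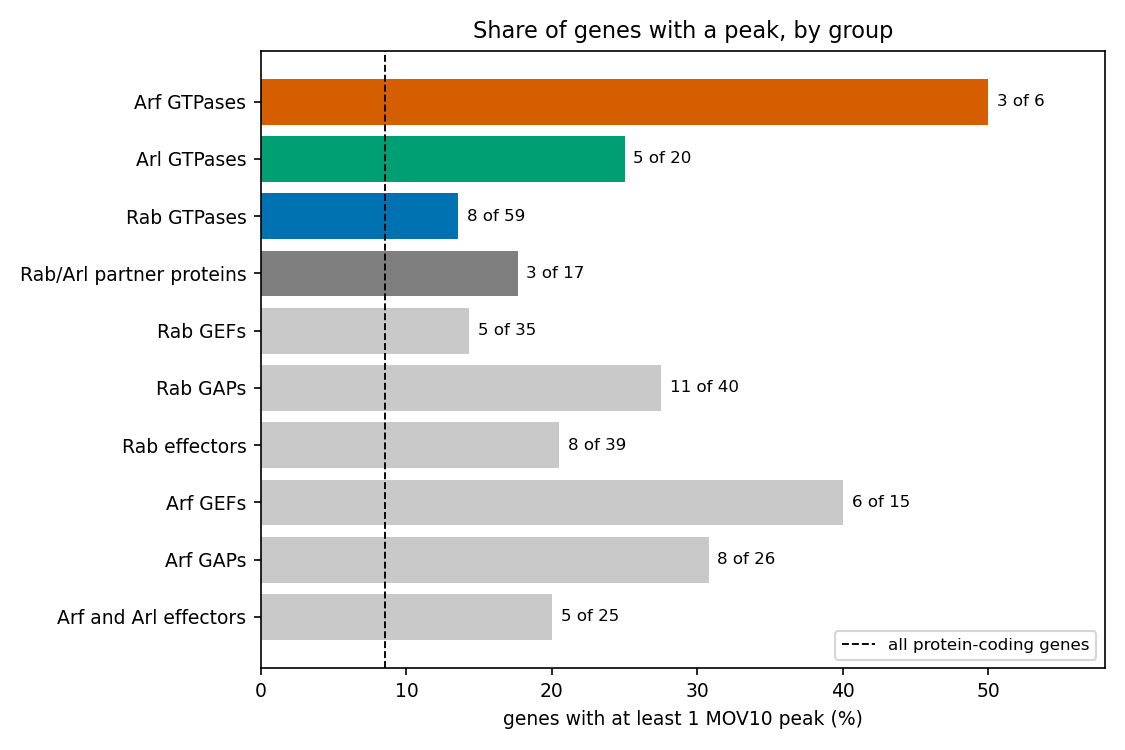
Share of genes with at least 1 MOV10 peak (bars, %) among the GTPases and partner proteins of the family (coloured and dark grey) and in the lists of regulators and effectors (light grey), with the number of genes beside each bar and the 8.53% of all protein-coding genes as a dashed line. Arf GTPases (3 of 6) and Arf GEFs (6 of 15) have the highest shares, on few genes and in groups chosen with earlier results of these data known.

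**Figure D5:**
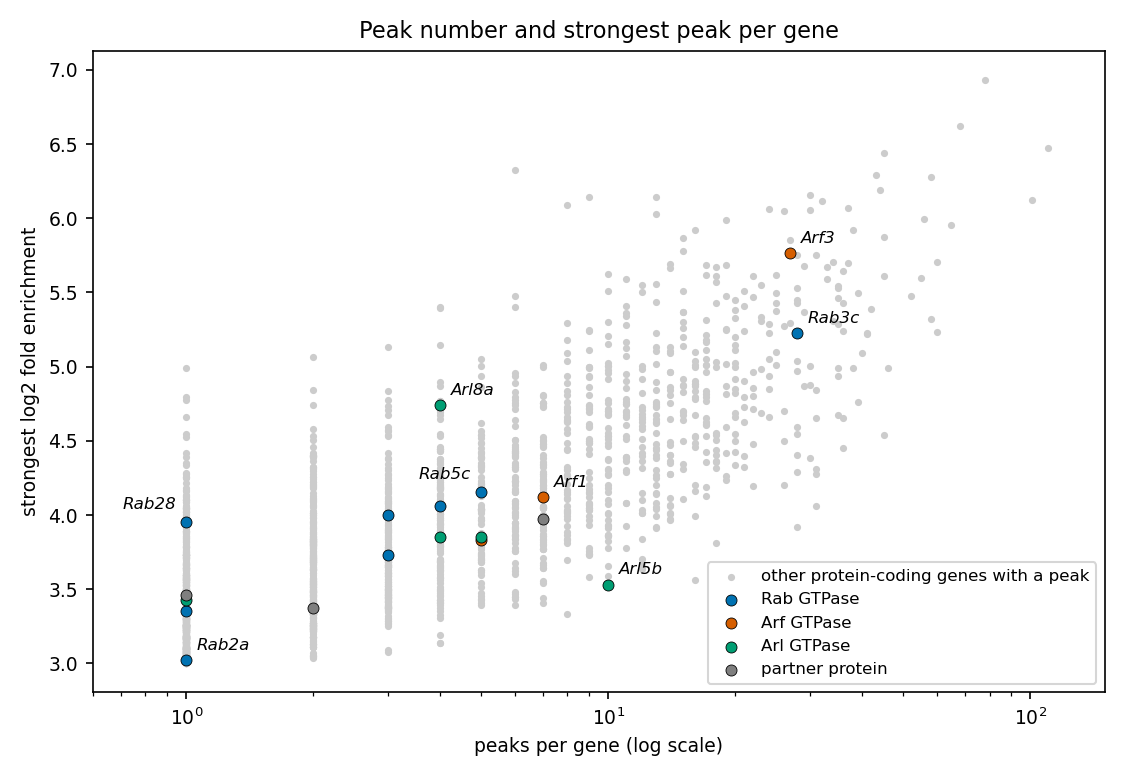
Strongest log2 enrichment against the number of peaks (log scale) for the 1868 coding genes with a peak (grey points), with the 19 Rab, Arf and Arl genes in colour. Arf3 and Rab3c lie among the genes with many strong peaks, Arl8a is strong for its 4 peaks, and Arl5b weak for its 10.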

How the data were processed

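MOV10 eCLIP of N2A cells gave 2 immunoprecipitate and 2 input libraries, which entered here only through 1 peak list. The deposited log2 fold enrichments and −log10 p-values per peak were computed by the authors. The list has no header, so both readings rest on the values and on the usual column order of such files. The name of the list marks an IDR (reproducibility) step, and the submitters' processing notes name mm10 and GRCm38.p6. What aligner, caller and cutoffs were used is not given in the sources used here. Values per library and depth were not analysed here.

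Starts were converted to count from 1. With Python 3.11.15 and pandas 2.3.3, peaks were assigned to RefSeq gene spans by midpoint, a script tested on simulated data. A peak in overlapping genes counted for each. Strand came from RefSeq transcription starts for 83 genes of the family. All peaks of the 15 with peaks among them were on that strand. For the other 4 with peaks it came from the peaks. Members and lists, roles included, were chosen with earlier results of these data known. Every member with a peak was named. The 12 strongest and those with at least 10 peaks got positions, as did some others, and each list its top 3 genes. Some genes and lists are not reported here. No test was run. Alternatives tried were stricter peaks, other assignment, merged touching peaks, other windows and GTPases only.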

Additional observations from a re-analysis of the deposited data

How the results depend on the processing

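Peaks were also counted by any overlap of 1 nt, by single-gene position, merged when touching, or on the strand of the gene. The share of genes with a peak stayed between 16.7% and 18.6%, against 7.70% to 8.55% of all coding genes. A −log10 p of at least 5 left it at 14.7%, against 6.69% of all coding genes. Only peaks with a log2 enrichment of at least 4 left 6.86% of the family with a peak, against 3.59% of all coding genes. Left were 4 Rab, 2 Arf, 1 Arl and 0 partner genes, 3 mixed paralog groups and 16 pathway genes. The median was then 2 peaks per gene. The median strongest value was 4.16, against 4.50 over all coding genes, both of which that threshold raises by construction. A −log10 p of at least 5 left 1 partner gene and 27 pathway genes. With a log2 enrichment of at least 4 the share of peaks near the 3′ end was 100%, against 86.2% over all coding genes. Without Arf3 and Rab3c it was 100%, against 85.9%. It was also 100% with the strongest peak per gene, against 89.0%, and with a window of 10 kb, against 92.4%. A window of 2 kb gave 67.3%, against 58.8%. The count by strand and the values without Arf3 and Rab3c were chosen after seeing the data. No paired analysis was possible because the list holds no values per library, and for the same reason no replicate was left out. Depth, input abundance and counting error were not known.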

Other observations

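Rab22a, a Rab of the early endosome, held no peak in its span. A peak with a log2 enrichment of 3.70 and a −log10 p of 3.38 lay 3683 nt past its annotated 3′ end on its strand, on chromosome 2 (173705812 to 173705926), in no annotated gene. It was the only such peak within 10 kb past the end of the 83 genes of the family with a strand from the annotation.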
